A study of Mus musculus with 5 samples.

Results

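H3K27ac, the acetylation of lysine 27 on histone H3, was examined at the peaks that lie farthest from genes, called desert peaks here. A desert peak was narrower than 3000 bp, overlapped no protein-coding gene of GENCODE M21 on mm10, and had its nearest protein-coding transcription start site (TSS) more than 100 kb from the peak edge. Of 124158 peaks in the deposited count table, 10646 (8.57%) met this rule, which used position and width and no count. They made up 30.7% of the 34708 intergenic peaks and covered 5.5 Mb of the 102.1 Mb under all peaks. The stretches of genome that can hold a desert peak add up to 867.3 Mb between the outermost genes of the chromosomes.

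The counts came from CUT&Tag, in which an antibody against the mark guides a transposase that cuts and tags the DNA beside it. Cells were regulatory T (Treg) cells sorted as CD3+CD4+Foxp3-YFP+ from large intestines of C57BL/6 mice aged 2 weeks, 60000 per library, with females and males pooled and each library drawn from 3 to 5 mice. Both groups carried Foxp3Cre, a Cre recombinase expressed from the Foxp3 locus, and therefore active in Foxp3+ cells. Ctrl mice had 1 floxed and 1 normal allele of Setd2, and in KO mice both were floxed. Setd2 encodes an H3K36 methyltransferase that places the trimethyl mark H3K36me3. There were 2 libraries per genotype, Ctrl 1 and Ctrl 2 against KO 1 and KO 2. An IgG library listed with the series was not analysed here.

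H3K27ac marks active promoters and active enhancers, the stretches of DNA whose bound transcription factors raise the activity of a gene that may lie far away on the same chromosome. Large gene-free intervals often surround regulators of development and of lymphocyte identity, and enhancers in such intervals can reach their gene by looping over long distances. The nearest gene is therefore a label of position below, and whether a peak acts on it was not tested. Lower counts at a peak can come from fewer cells carrying the mark or from less of it per cell, which cannot be told apart in pooled cells.

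The windows printed here show what these peaks look like as DNA: the central 300 bp of the 3 desert peaks with the highest level, of the peaks with the smallest p among those higher and among those lower in KO, and of the peak farthest from any TSS. Each is named by its nearest gene, is written 5′ to 3′ on the plus strand of mm10 and has capitals only where a searched motif was found on either strand. The windows are chr3:103385840-103386139 (Trim33), chr1:7397508-7397807 (Pcmtd1), chr15:62169364-62169663 (Myc), chr12:26190227-26190526 (Rnf144a, higher in KO), chr17:64457156-64457455 (Pja2, lower in KO) and chr14:91199339-91199638 (Pcdh9, farthest).
Trim33: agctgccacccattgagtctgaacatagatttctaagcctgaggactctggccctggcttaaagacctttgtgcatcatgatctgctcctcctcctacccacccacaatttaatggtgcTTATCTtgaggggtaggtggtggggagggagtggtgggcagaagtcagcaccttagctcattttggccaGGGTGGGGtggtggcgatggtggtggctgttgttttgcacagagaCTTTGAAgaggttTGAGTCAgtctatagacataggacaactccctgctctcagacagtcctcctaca
Pcmtd1: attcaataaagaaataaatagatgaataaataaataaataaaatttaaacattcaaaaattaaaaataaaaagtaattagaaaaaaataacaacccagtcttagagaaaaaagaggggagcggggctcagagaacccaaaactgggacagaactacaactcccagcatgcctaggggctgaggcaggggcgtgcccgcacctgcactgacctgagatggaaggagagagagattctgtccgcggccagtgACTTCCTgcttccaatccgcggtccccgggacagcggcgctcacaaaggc
Myc: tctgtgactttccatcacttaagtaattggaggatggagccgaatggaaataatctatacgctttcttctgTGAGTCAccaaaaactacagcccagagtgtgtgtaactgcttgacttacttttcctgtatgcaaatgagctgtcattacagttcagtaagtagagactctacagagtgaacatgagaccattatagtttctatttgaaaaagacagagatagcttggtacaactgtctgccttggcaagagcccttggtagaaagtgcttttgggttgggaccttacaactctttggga
Rnf144a: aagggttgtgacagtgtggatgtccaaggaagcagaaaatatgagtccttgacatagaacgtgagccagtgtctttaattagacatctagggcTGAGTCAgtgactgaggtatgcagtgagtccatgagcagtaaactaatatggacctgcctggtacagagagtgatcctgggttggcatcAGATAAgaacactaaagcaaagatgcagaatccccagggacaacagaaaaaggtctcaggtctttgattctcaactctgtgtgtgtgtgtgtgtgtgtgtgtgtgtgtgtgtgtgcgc
Pja2: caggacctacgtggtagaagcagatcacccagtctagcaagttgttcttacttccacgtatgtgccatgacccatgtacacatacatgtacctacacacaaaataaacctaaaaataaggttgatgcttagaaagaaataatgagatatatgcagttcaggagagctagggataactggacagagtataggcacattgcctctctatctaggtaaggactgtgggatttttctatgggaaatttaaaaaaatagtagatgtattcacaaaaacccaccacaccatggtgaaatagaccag
Pcdh9: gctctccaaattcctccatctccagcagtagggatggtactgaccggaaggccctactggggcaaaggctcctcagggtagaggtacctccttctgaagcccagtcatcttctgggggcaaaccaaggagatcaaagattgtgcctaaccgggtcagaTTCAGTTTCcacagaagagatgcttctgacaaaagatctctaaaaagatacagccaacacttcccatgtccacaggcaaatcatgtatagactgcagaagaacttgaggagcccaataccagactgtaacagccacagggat

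The Trim33 window held 4 matches, among them TGAGTCA, the site of AP-1 factors that follow T cell receptor signals, CTTTGAA of the TCF/LEF family, and TTATCT, the reverse complement of the GATA site AGATAA. The Myc window held TGAGTCA once. The Rnf144a window held TGAGTCA and AGATAA. The Pcmtd1 window held ACTTCCT, the reverse complement of the ETS site AGGAAGT, and 56.3% of it was repeat-masked in the reference. The Pcdh9 window held 1 match to the IRF pattern and the Pja2 window held no match to any of the 12 patterns.

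Over all desert peaks, 10.4% of the central windows held the AP-1 pattern TGANTCA, 9.77% the ETS pattern AGGAAGT, 7.42% the RUNX pattern TGTGGTT and 16% the GATA pattern AGATAA, with both strands searched. Over all 124158 peaks the shares were 9.39%, 9.52%, 7.42% and 13.5%. Of the patterns rich in G and C, those for KLF and CTCF stood in a smaller share of desert windows than of windows of each other class. The KLF pattern GGGNGGGG was found in 8.77% of desert windows, 11.6% of nearer intergenic windows (peaks under 3000 bp within 100 kb of a TSS, outside genes) and 21.4% of promoter windows (within 3 kb of a TSS), and the CTCF core AGNGGGC in 11.7%, 14.8% and 22.1%. In gene body windows (peaks under 3000 bp in genes, over 3 kb from a TSS) the shares were 9.77% for KLF and 14.6% for CTCF. Base composition ran the same way, with a median GC content of 45.7% in desert windows, 47.3% in nearer intergenic windows and 52% in promoter windows.

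Each of the 12 patterns stood in a higher share of desert peaks at least 1000 bp wide than of those under 500 bp, a difference that was not tested, with 13.7% against 7.79% for KLF, 14.5% against 9.38% for AP-1, 14.6% against 8.63% for ETS and 9.73% against 7.09% for RUNX. All windows had the same length, so this is no effect of a longer search. The TCF/LEF pattern CTTTGAA stood in 8.01% of the wide and 6.35% of the narrow peaks, and the forkhead pattern TGTTTAC, the family of Foxp3 and Foxo1, in 5.26% and 4.2%. The remaining patterns were TTCNNNGAA for STAT factors (9.52% of all desert windows), CAGCTG for E-box factors (15.3%), GAAANTGAA for IRF factors (2.74%) and GGANTTCCC for NF-kB (0.911%). These matches are letters in a window and were not tested as binding sites.

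Desert peaks were small and weak. Their median width was 381 bp, with quartiles of 320 and 527 bp, and their median distance to a TSS was 211.1 kb, with a largest value of 2689 kb. Level was measured as CPM, a peak's counts scaled to the library's counts in tested peaks, corrected by the trimmed mean of M values (TMM). The median over desert peaks of the mean CPM was 2.23, or 5.85 CPM per kb of peak, against 3 CPM (6.95 per kb) at nearer intergenic peaks, 3.29 CPM (6.95 per kb) at gene body peaks under 3000 bp and 6.09 CPM (9.24 per kb) at promoter peaks under 3000 bp. The typical desert peak held 10 counts in KO 1 and 5 in each of the other libraries, and the fullest held 312 counts in KO 2.

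Level followed width and distance. Of the 7716 desert peaks under 500 bp, 16.2% had the counts needed for testing (at least 10 in at least 2 libraries), whereas all 393 peaks of 1500 bp or more had them, with a median of 21.7 CPM. Of the 4980 peaks 100 to 200 kb from a TSS, 44.2% were tested, of the 3890 at 200 to 500 kb 30.8%, of the 1276 at 500 to 1000 kb 15%, and of the 500 beyond 1000 kb 10%. The median level per kb went from 6.5 CPM in the nearest of these bins to 4.71 CPM in the farthest, and repeat-masked sequence from 14.3% to 36.3% of the window. Across the 10646 peaks, Spearman's rho of mean CPM was 0.71 with width and -0.26 with distance, a description over peaks that share the same 4 libraries. Mean CPM is not divided by width, and widths come from peaks called on the same libraries, so a positive rho with width was built in. Per kb, the median was 5.36 CPM under 500 bp and 11 CPM at 1500 bp or more.

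The 5 desert peaks with the highest mean CPM lay 104.7 to 307.4 kb from a TSS and were 2350 to 2918 bp wide. The first, chr3:103384531-103387448 downstream of Trim33 (a transcriptional cofactor of SMAD signalling), had 63.3 and 54.5 CPM in Ctrl against 67.4 and 67.8 CPM in KO. The second, chr1:7396319-7398995 downstream of Pcmtd1, measured 86.9 and 45.2 CPM in Ctrl and 70.8 and 47 CPM in KO, so that replicate 1 exceeded replicate 2 in each genotype. It overlapped the lncRNA gene Gm26901 and its TSS.

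Peak chr15:62168188-62170839, 180.8 kb downstream of Myc, a transcription factor that drives cell growth, measured 57.9 and 49.1 CPM in Ctrl and 62.6 and 74.8 CPM in KO. It lies inside the lncRNA gene Pvt1. Peak chr9:120775029-120777378, 156.0 kb upstream of Ctnnb1, which encodes β-catenin, measured 57.5 and 48.5 CPM in Ctrl and 80.5 and 55.3 CPM in KO. Peak chr2:6477265-6480129, 154.6 kb downstream of Usp6nl and over the start of the noncoding gene Gm38386, measured 56.1 and 44.3 CPM in Ctrl and 67.8 and 65.9 CPM in KO. KO lay above Ctrl in all libraries at the Trim33, Myc and Usp6nl peaks and overlapped Ctrl at the other 2, with log2 fold changes from -0.16 to 0.42 (SE 0.30) and an edgeR adjusted p of 0.998 for each.

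Desert peaks were crowded into a limited number of gene-free intervals, called gaps here, each running from the end of one protein-coding gene to the start of the next. They fell into 1326 gaps, of which 286 held a single desert peak, while the 50 fullest gaps held 25.6% and the 100 fullest 38.4% of them. Another desert peak lay within 10 kb of 55.7% of them and within 50 kb of 78.7%.

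The gap from Myc to Gsdmc on chromosome 15 (61990375 to 63775967) held the most, 114 desert peaks, 68 of them tested. Their summed level was 735.2 and 660.1 CPM in Ctrl and 772.4 and 721.7 CPM in KO. The gap from Satb1, a chromatin organizer of thymocytes and Treg cells, to Kcnh8 on chromosome 17 held 103 and summed to 624.8 and 414.3 CPM in Ctrl and 628.6 and 445.4 CPM in KO. In both gaps the genotypes overlapped, and at Satb1 replicate 1 lay above replicate 2 in each.

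The gap between Celf2 and Gata3 on chromosome 2 (7509564 to 9857077) held 89 desert peaks, all 83 that were nearest to Gata3 lying downstream of it. GATA3 is the transcription factor of T helper 2 cells and of a subset of intestinal Treg cells. The gap summed to 550.1 and 477.1 CPM in Ctrl (513.6 ± 51.7, SD, n = 2) and 614.8 and 549.2 CPM in KO (582.0 ± 46.4, SD, n = 2), with KO 2 just below Ctrl 1. Its log2 fold change was 0.18 (SE 0.24) at an edgeR adjusted p of 0.999. Without any 1 library it lay between 0.08 and 0.28. With a loess offset on abundance, which treats a sum of many peaks like a single peak of its level, it turned to -0.17.

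On chromosome 12 the gap from Vrk1 to 3110018I06Rik held 86 desert peaks. It measured 399.5 and 429.1 CPM in Ctrl and 502.6 and 524.5 CPM in KO, so that the groups did not overlap, and its log2 fold change of 0.31 (SE 0.24) had an edgeR adjusted p of 0.999. With the same loess offset the fold change was -0.023. Without any 1 library it lay between 0.25 and 0.37, a direction largely set by groups that do not overlap. The next protein-coding gene beyond 3110018I06Rik in this direction is Bcl11b (107910403 to 108003602), a transcription factor needed for T lineage commitment, named here after its position was seen. The gaps of Bcl2l11, which encodes the death factor BIM, of Foxo1 and of Id2 were among the 5 with the highest summed level, at 552.9 to 737.4, 543.1 to 661.7 and 493.7 to 631.2 CPM over the 4 libraries.

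**Figure D1:**
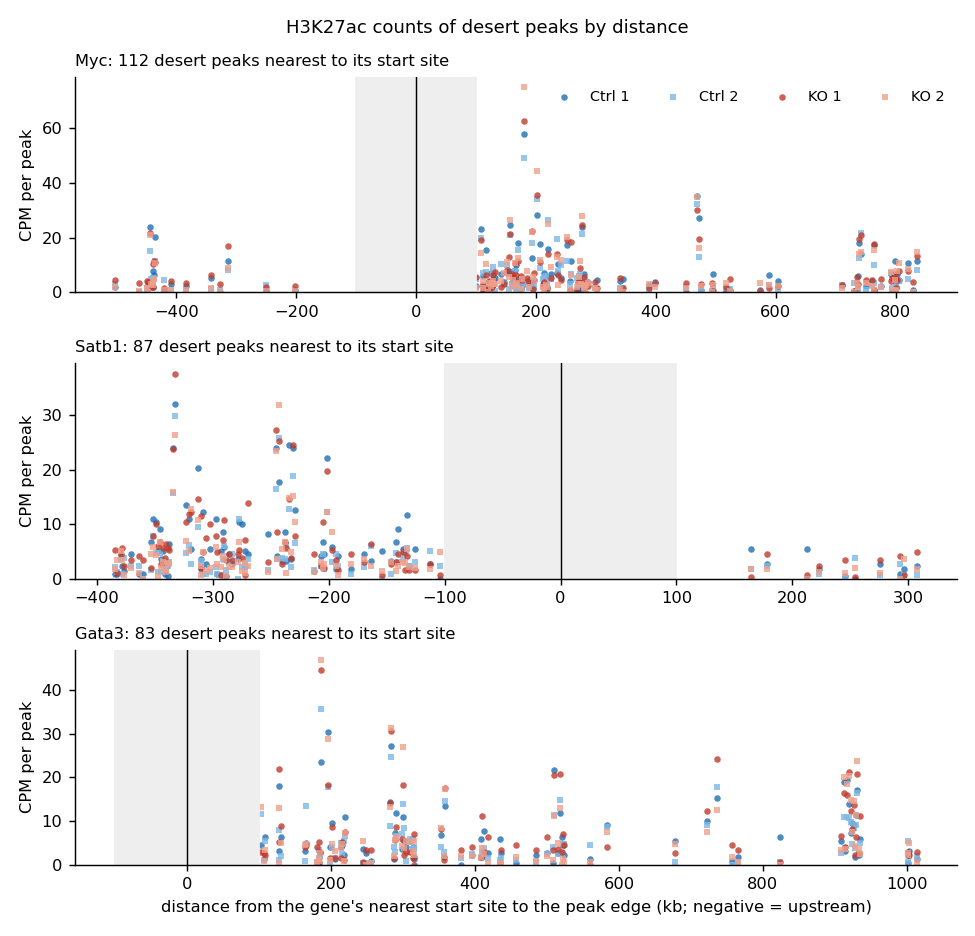
CPM of each desert peak nearest to Myc (112 peaks), Satb1 (87) or Gata3 (83) against its distance in kb from the TSS, with negative values upstream, 1 point per library (Ctrl 1 and Ctrl 2 in blues, KO 1 and KO 2 in reds) and the excluded 100 kb on each side in grey. The peaks stand in clusters, with the highest Myc peak 180.8 kb and the highest Gata3 peak 186.1 kb downstream, and the highest Satb1 peak 332.3 kb upstream.

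Immune receptor gene segments are not annotated as protein-coding, so their loci count as gene-free under the rule. The 91 desert peaks between Adam6a and Zfp386 on chromosome 12 lie in the variable region of the immunoglobulin heavy chain locus, and the whole Igh locus (113254830 to 116010093) held 106, of which 54 were tested. Together the Igh peaks summed to 643.8 and 451.5 CPM in Ctrl and 762.7 and 435.1 CPM in KO, with replicate 1 above replicate 2 in each genotype. The other receptor loci held few, with 12 at Trb, 5 at Tra/Trd, 4 at Trg, 23 at Igk and 0 at Igl. The 12 desert peaks of Trb, the T cell receptor beta locus, summed to 62.4 and 70.8 CPM in Ctrl and 60 and 66.8 CPM in KO.

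The labelled cell type was checked at promoters. All 8 markers of T and Treg cells, among them Cd3d, Foxp3 and Il2ra, had a promoter peak, and their summed level was 942.4 to 1428 CPM over the 4 libraries. Of the 5 B cell markers, Ms4a1 and Pax5 had no promoter peak. The list summed to 15.4 and 25.9 CPM in Ctrl and 26.1 and 19.4 CPM in KO. Whether B cells contributed to the Igh signal was not tested. The sums were 6.25 to 11.3 CPM for CD8 and γδ T cells (2 of 3 markers without a peak), 17.9 to 35.3 CPM for myeloid cells (2 of 5), 13.2 to 22.2 CPM for epithelium (2 of 5) and 0 to 4.07 CPM for stroma and neurons (3 of 4).

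The nearest genes of desert peaks were sorted into lists. Of 62 T cell transcription factors, 30 had a desert peak nearest to them, 650 peaks in all, and of 50 signalling and mRNA decay regulators of T cells, 20 had 289 peaks. Of 54 receptors, cytokines and adhesion molecules of T cells, 12 had 233. Of these peaks 56.9%, 58.1% and 56.2% were tested, against 34.2% of all desert peaks. Developmental regulators more often had desert peaks (43 of 68 genes, 176 peaks), and cadherins and neuronal adhesion genes most often (48 of 56 genes, 397 peaks), but 22.2% and 8.56% of their peaks were tested. Over all protein-coding genes 8.52% had a desert peak nearest to them.

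The median level per kb was 7.09, 7.13 and 7.09 CPM for the lists of transcription factors, receptors and signalling regulators, 5.25 CPM for developmental regulators and 4.53 CPM for the neuronal list. Genes of other lineages, such as Kit and Cebpb, lay between, with 65 peaks at 14 of 51 genes and 6.53 CPM per kb. The replicates of the lists differed as well. Desert peaks of the neuronal list summed to 912.1 and 392.8 CPM in Ctrl and 1344 and 278.9 CPM in KO, a ratio of replicate 1 to replicate 2 of 2.32 and 4.82, whereas those of T cell transcription factors summed to 4155 and 3394 CPM in Ctrl and 4439 and 3797 CPM in KO, a ratio of 1.22 and 1.17.

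After Myc, Satb1 and Gata3, the transcription factor genes with most desert peaks were Id2, an inhibitor of E proteins, with 57, and Maf, a regulator of cytokine genes, with 31. The strongest Id2 peak, 141.3 kb upstream, measured 48.4 and 29.2 CPM in Ctrl and 57 and 45.8 CPM in KO, and the strongest Maf peak, 199.4 kb away, measured 23.1 and 19.9 CPM in Ctrl and 33.5 and 29.7 CPM in KO. At Gata3 the strongest peak, 186.1 kb away, measured 23.5 and 35.7 CPM in Ctrl and 44.7 and 47 CPM in KO. The KO libraries lay above the Ctrl libraries at the Maf and Gata3 peaks but not at the Id2 peak, and the edgeR adjusted p was 0.998 for all 3, with log2 fold changes of 0.56 (SE 0.36), 0.62 (SE 0.33) and 0.41 (SE 0.32).

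Among receptors, Nrp1, a semaphorin receptor abundant on thymus-derived Treg cells, had 55 desert peaks. Tgfbr2, a subunit of the TGF-β receptor, had 42, all upstream of it. Cxcr4, a chemokine receptor, had 33 and Ptger4, a prostaglandin E2 receptor, had 32. The strongest Tgfbr2 peak measured 39.8 and 21.7 CPM in Ctrl and 44 and 23.2 CPM in KO, and the strongest Cxcr4 peak 41.2 and 43.2 CPM in Ctrl and 58.1 and 51.5 CPM in KO. Replicate 1 lay above replicate 2 in both genotypes at Tgfbr2, and at Cxcr4 each KO library exceeded each Ctrl library (log2 fold change 0.38, SE 0.31, edgeR adjusted p 0.998).

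Among signalling genes, Btg1, which restrains proliferation, had 55 desert peaks, Cblb, a ubiquitin ligase that dampens T cell activation, 49, Dusp4, a MAP kinase phosphatase, 28, and Zfp36l1, an mRNA decay factor, 23. The strongest Cblb peak, 338.7 kb upstream, measured 54.3 and 25 CPM in Ctrl and 62.2 and 38.6 CPM in KO. The strongest Zfp36l1 peak measured 42.5 and 25.3 CPM in Ctrl and 24.6 and 54.6 CPM in KO. Replicates of a genotype thus differed by more than the genotypes at both peaks. Of the neuronal list, Flrt2 had 30 desert peaks with 3 tested, Slitrk1 22 with 0 tested and Pcdh17 17 with 0 tested.

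Both replicate 1 libraries held a larger share of their counts in desert peaks than the replicate 2 libraries, with KO 1 the highest. Desert peaks took 4.16% of the 2395002 counts in Ctrl 1 (95% exact Clopper-Pearson interval 4.14 to 4.19%), 2.99% of 3630447 in Ctrl 2 (2.98 to 3.01%), 4.81% of 3007444 in KO 1 (4.78 to 4.83%) and 2.89% of 4712473 in KO 2 (2.88 to 2.91%), intervals that cover counting error only. The Ctrl mean was 3.58 ± 0.83% (SD, n = 2) and the KO mean 3.85 ± 1.35% (SD, n = 2). By an exact two-sided permutation test p was 1, and 2 against 2 libraries cannot reach a value under 0.333. KO 1 was the highest library at 55.1% of desert peaks, against 41.4% of nearer intergenic, 25.3% of gene body and 28.2% of promoter peaks. KO 2 was the highest at 8.39%.

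**Figure D2:**
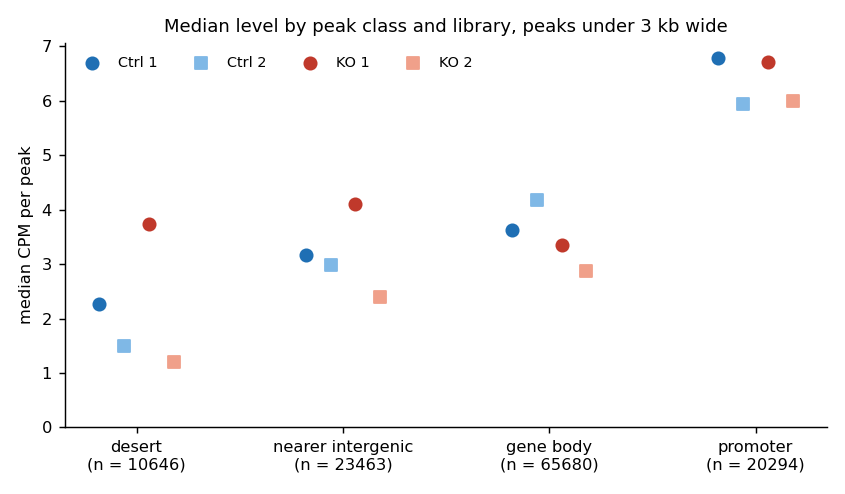
Median CPM per peak in each library (Ctrl 1 and Ctrl 2 in blues, KO 1 and KO 2 in reds) for desert, nearer intergenic, gene body and promoter peaks under 3000 bp wide. At desert peaks KO 1 has the highest median, 3.73 CPM, and KO 2 the lowest, 1.2 CPM, while the promoter medians lie between 5.95 and 6.79 CPM.

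Peaks were called on the compared libraries, so a weak peak can stand in the set because 1 library was high there. Within that set, the excess of KO 1 was largest at the narrow and remote peaks. It was the highest library at 58.4% of desert peaks under 500 bp and 32.8% of those of 1500 bp or more, and at 50.2% of those 100 to 200 kb from a TSS and 70.8% of those beyond 1000 kb. Gaps showed the same gradient. The 313 gaps with at least 10 desert peaks were ordered by the share of their peaks that were tested. In the 79 gaps with the lowest share (at most 10%) the median ratio of KO 1 to KO 2 was 5.8 and that of Ctrl 1 to Ctrl 2 was 1.99, and in the 78 gaps with the highest share (at least 55.1%) the medians were 1.15 and 1.22. The share tested comes from the same counts as the ratios.

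**Figure D3:**
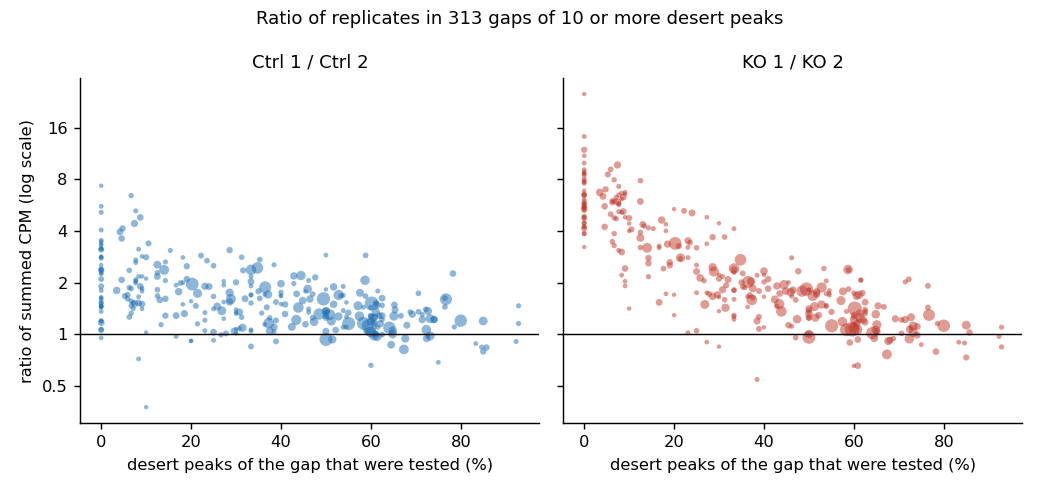
Ratio of summed CPM between the replicates of a genotype (log scale, Ctrl on the left, KO on the right) against the percentage of a gap's desert peaks that were tested, 1 point per gap of at least 10 desert peaks, its area scaled to their number. The ratios of KO 1 to KO 2 run up to 25.2 where no peak was tested and lie near 1 in the gaps with most tested peaks.

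The gap with the highest ratio, between Slc4a3 and Epha4, summed to 9.95 and 6.84 CPM in Ctrl and 30.2 and 1.2 CPM in KO over 10 desert peaks, none of them tested. The gap between Bcl6, a transcription factor of follicular T cells, and Lpp shared the highest tested share with that between Lclat1 and Capn13. Of its 14 desert peaks 13 were tested, and it summed to 165.1 and 143.1 CPM in Ctrl and 136.0 and 161.5 CPM in KO. The lowest ratio, 0.543, was that of the gap between Trib1 and 4933412E24Rik, with 29.9 and 28.9 CPM in Ctrl and 24.6 and 45.3 CPM in KO.

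KO was then compared with Ctrl at the 3644 desert peaks (34.2%) with enough counts, in an edgeR quasi-likelihood fit over all 74550 tested peaks. At an adjusted p under 0.05, 0 desert peaks were called, where 1 of all tested peaks (0.00134%) was, and DESeq2 called 0 as well. At an unadjusted p under 0.05, edgeR found 56 desert peaks (1.54%) with more and 41 (1.13%) with less signal in KO, and DESeq2 27 and 27. In the same edgeR fit, nearer intergenic peaks stood at 1.74% higher and 1.17% lower, and gene body peaks at 1.15% and 4.37%. The background over all tested peaks in edgeR was 1.45% higher and 2.79% lower. Desert peaks were near it for higher values and, like nearer intergenic peaks, below it for lower ones. These counts moved with single libraries, with 122 higher and 9 lower without Ctrl 1, 8 higher without KO 1 and 63 lower without Ctrl 2. KO 1 and KO 2 each exceeded both Ctrl libraries at 720 desert peaks (19.8%; background 16.9%), and each lay below both at 346 (9.5%; background 16.4%). At nearer intergenic peaks these shares were 20% and 11.3%.

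The median log2 fold change of the tested desert peaks was 0.14 (quartiles -0.27 and 0.55), against 0.10 at nearer intergenic peaks, -0.15 at gene body peaks, 0.04 at promoter peaks and -0.01 over all tested peaks. Its sign depended on single libraries, with -0.12 without KO 1 and -0.02 without Ctrl 2, but 0.35 without Ctrl 1 and 0.29 without KO 2. Centred per peak, the median log2 CPM of tested desert peaks stood at 0.11 and -0.24 in the Ctrl libraries and at 0.31 and -0.09 in KO 1 and KO 2. Relative to nearer intergenic peaks the values were 0.06 and -0.11 in Ctrl and 0.13 and -0.08 in KO, a difference between genotypes of 0.05 (exact permutation p = 0.667, smallest possible 0.333).

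Gene body peaks differed from desert peaks in the library order. Ctrl 2, with the lowest centred median of tested desert peaks, had the highest centred median of tested gene body peaks (0.19). The value of desert minus gene body peaks was 0.12 and -0.43 in Ctrl and 0.39 and -0.10 in KO. The difference between genotypes was 0.30 (exact permutation p = 0.667), with Ctrl 1 above KO 2.

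**Figure D4:**
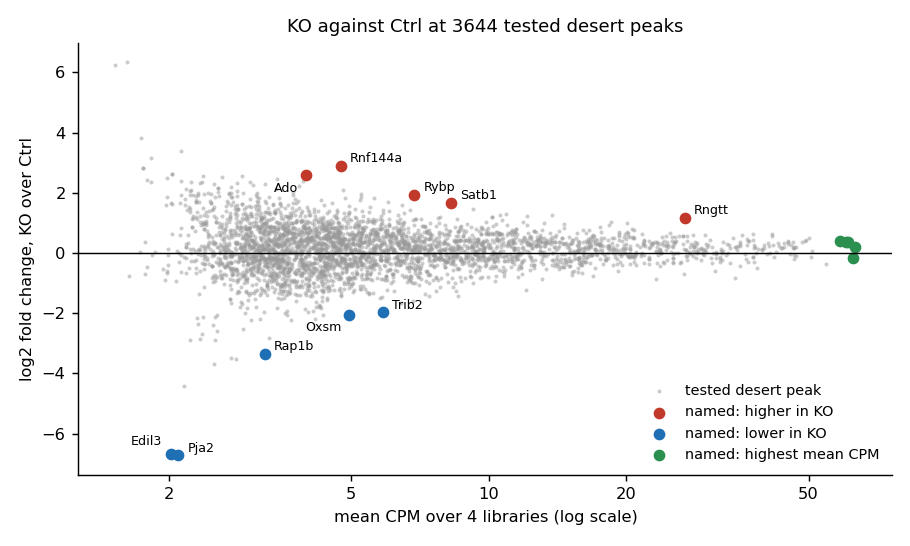
Log2 fold change of KO over Ctrl against mean CPM (log scale) for the 3644 tested desert peaks, with the 5 higher and 5 lower peaks named by the smallest p and the 5 peaks of highest level in colour. Values spread widely at low level, the 5 highest peaks lie between -0.16 and 0.42, and fitted values where a group has 0 counts depend on the prior count of the fit.

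Among peaks whose KO libraries both exceeded both Ctrl libraries, the smallest p was at chr12:26190073-26190680, 224.5 kb downstream of the ubiquitin ligase gene Rnf144a in the gap it shares with Id2. It held 3 and 3 counts (1.36 and 0.893 CPM) in Ctrl and 18 and 42 counts (6.71 and 10.1 CPM) in KO, with a log2 fold change of 2.90 (SE 0.85), an unadjusted p of 0.000599 and an edgeR adjusted p of 0.998. Peak chr4:33586217-33588738, 275.9 kb downstream of the mRNA capping gene Rngtt, measured 18.1 and 14.6 CPM in Ctrl and 56.3 and 18.4 CPM in KO. KO 2 lay just above Ctrl 1 there and KO 1 stood apart (log2 fold change 1.18, SE 0.37, edgeR adjusted p 0.998). Without KO 1 it was 0.16.

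The next were a peak 147.2 kb upstream of Rybp, a subunit of Polycomb repressive complex PRC1, with 2.26 and 3.27 CPM in Ctrl and 11.9 and 10.1 CPM in KO, and 1 of 1128 bp 318.8 kb upstream of Satb1 (chr17:52152123-52153250) with 5.43 and 2.68 CPM in Ctrl and 12.3 and 12.7 CPM in KO. The Satb1 peak lies in the lncRNA gene Gm19585, and its log2 fold change was 1.66 (SE 0.59, unadjusted p 0.00485). The fifth, 153.9 kb upstream of Ado, had 3 counts in each Ctrl library, 26 in KO 1 and 17 in KO 2. Their edgeR adjusted p was 0.998 in each case. The Rnf144a and Ado peaks reached the count minimum only in the KO libraries, so being tested already required them to differ.

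Among peaks lower in KO, those near Pja2 (chr17:64457158-64457453) and Edil3 (chr13:88352967-88353279) were at 0 counts in both KO libraries. They held 10 and 13 counts in Ctrl at Pja2 and 10 and 12 at Edil3. With a floor of 3 counts over both KO libraries, the pooled Ctrl level was 9.44-fold that floor at Pja2 and 9.03-fold at Edil3. These folds leave out the counting error of the Ctrl counts. Both peaks were also chosen for being lower in KO, so the folds are no lower bound. Both had an edgeR adjusted p of 0.998. The Edil3 window was 83.7% repeat-masked.

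Peak chr12:16082322-16083374, 265.4 kb upstream of the pseudokinase gene Trib2, measured 10.4 and 8.33 CPM in Ctrl and 2.61 and 2.16 CPM in KO (log2 fold change -1.96, SE 0.71, unadjusted p 0.00534, edgeR adjusted p 0.998). The peak 123.8 kb upstream of Rap1b, a small GTPase of integrin activation, had 16 counts in each Ctrl library, 0 in KO 1 and 4 in KO 2, and that 150.7 kb downstream of Oxsm held 20 and 24 in Ctrl and 2 and 12 in KO. Groups did not overlap at any of these 10 peaks, by the rule that chose them. The Pja2, Edil3, Rap1b and Trib2 peaks reached the count minimum in Ctrl alone and were likewise bound to differ once tested.

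By gap, the summed counts of desert peaks were tested in 1006 gaps within a table of 71912 rows, the other peaks as single rows. edgeR called 0 gaps at an adjusted p under 0.05, where 1 row of the table (0.00139%) was called, and the smallest adjusted p of a gap was 0.999. At an unadjusted p under 0.05, 40 gaps (3.98%) were higher and 7 (0.696%) lower in KO in edgeR, against 1.37% and 2.72% of the rows, and 10 and 4 in DESeq2. Most of these rows are single peaks of other classes that met the count minimum. Gap sums also hold peaks too weak to be tested alone, so the shares are of unlike units. KO 1 was the highest library in 39 of the 40 higher gaps, and the groups did not overlap in 14 of them. Without KO 1, 1 gap was higher and 159 were lower, without KO 2, 226 were higher and 3 lower, without Ctrl 1, 163 and 4, and without Ctrl 2, 6 and 13.

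The 5 higher gaps with the smallest p and at least 3 desert peaks had far more counts in KO 1 than in any other library. Between Lcorl and the axon guidance gene Slit2, 8 desert peaks summed to 15 and 12 counts in Ctrl and 85 and 17 counts in KO. The counts were 5 and 11 in Ctrl and 53 and 12 in KO between 1810013L24Rik and Grin2a, a glutamate receptor gene, 12 and 13 in Ctrl and 65 and 22 in KO between Anxa10 and Spock3, and 13 and 5 in Ctrl and 59 and 13 in KO between Crbn and Lrrn1. Between Dmrta2 and Elavl4, an RNA-binding protein of neurons, they were 2 and 4 in Ctrl and 31 and 10 in KO. None of the desert peaks in these 5 gaps was tested alone, and without KO 1 the log2 fold change was -0.34 at Lcorl to Slit2, 0.03 at 1810013L24Rik to Grin2a, 0.18 at Anxa10 to Spock3 and -0.21 at Crbn to Lrrn1. The Dmrta2 to Elavl4 gap has too few counts to be tested without KO 1, having reached the count minimum only in the KO libraries.

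The first 4 of the 5 lower gaps had log2 fold changes of -1.89 to -0.48 without any 1 library. Their groups did not overlap, so this direction was largely set beforehand. The fifth, Psma2 to Gli3, reached the count minimum in Ctrl alone, so it could be tested only without a KO library, with -2.37 and -1.34. The gap of 6 desert peaks between BC067074 and Snx18 on chromosome 13 summed to 70 and 61 counts (31.7 and 18.2 CPM) in Ctrl and 22 and 47 counts (8.2 and 11.3 CPM) in KO, a log2 fold change of -1.33 (SE 0.44, unadjusted p 0.00319, edgeR adjusted p 0.999). Between Tle4, a Groucho corepressor, and Psat1, 8 desert peaks summed to 19 and 17.9 CPM in Ctrl and 9.31 and 6.71 CPM in KO. Between Commd8 and Corin 7 summed to 29.4 and 33 CPM in Ctrl and 14.9 and 17.7 CPM in KO. The gaps between Mms22l and Klhl32 (4 desert peaks) and between Psma2 and Gli3, a Hedgehog transcription factor (3), were lower too, the first with 22.2 and 8.33 CPM in Ctrl and 8.2 and 4.07 CPM in KO, the second with 9.5 and 5.65 CPM in Ctrl and 2.98 and 1.44 CPM in KO. In all 5 each KO library lay below each Ctrl library.

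**Figure D5:**
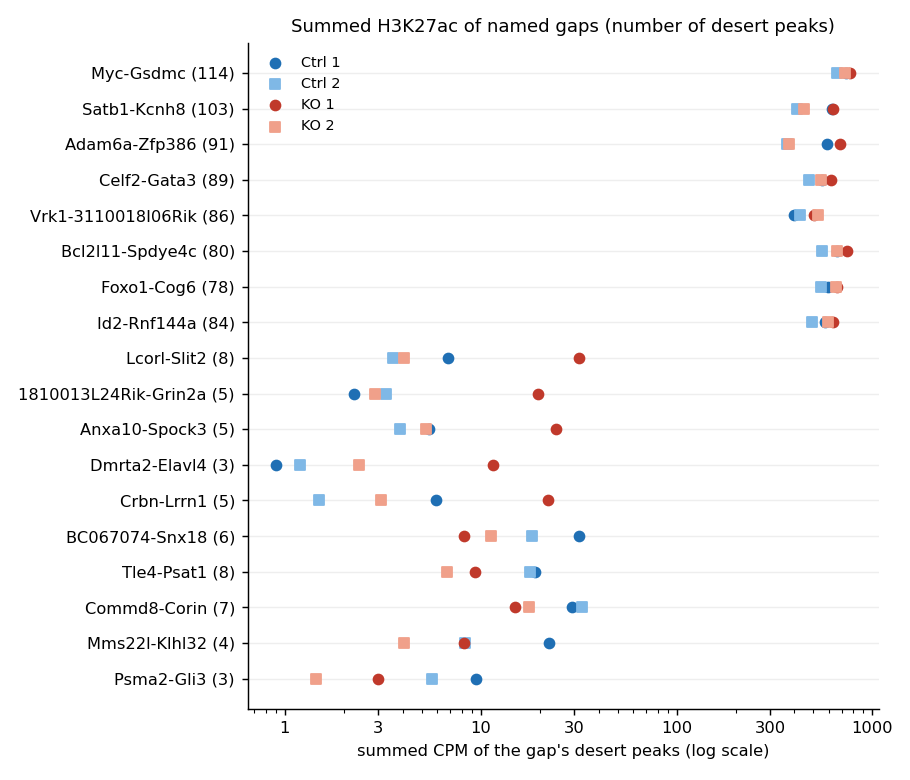
Summed CPM of the desert peaks of the named gaps (log scale), 1 point per library (Ctrl 1 and Ctrl 2 in blues, KO 1 and KO 2 in reds), with the number of desert peaks in brackets. The 8 full gaps at the top lie between 365.5 and 772.4 CPM, the 5 higher gaps have KO 1 apart from the other 3 libraries, and the 5 lower gaps have both KO libraries below both Ctrl libraries.

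By list, tested desert peaks had a median log2 fold change of 0.12 for T cell transcription factors (370 tested, 214 above 0 and 156 below), 0.20 for receptors, cytokines and adhesion molecules (131 tested, 84 and 47) and 0.16 for signalling regulators (168 tested, 99 and 69), beside 0.14 over all tested desert peaks. At an unadjusted p under 0.05, 7 higher and 4 lower were found in the first list, 3 and 1 in the second and 2 and 2 in the third, beside 1.45% higher and 2.79% lower over all tested peaks, and edgeR called 0 in each at an adjusted p under 0.05. Developmental regulators (39 tested) had a median of 0.13 with 1 peak in each direction at an unadjusted p under 0.05, the neuronal list (34 tested) 0.16 with 0, and genes of other lineages (27 tested) 0.23 with 0.

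Part of the desert peaks lay in or near annotated long noncoding genes. Of the 10646, 2043 (19.2%) overlapped an lncRNA gene (GENCODE types of long noncoding and unclassified transcripts), a share not computed for other classes. Within 3 kb of an lncRNA TSS lay 664 (6.24%), against 8.4% of nearer intergenic, 3.93% of gene body and 14% of promoter peaks. Those at an lncRNA TSS were wider, with a median of 448 bp against 378 bp, and stronger, with 7.13 CPM per kb against 5.77. Of them 55.6% were tested, against 32.8% of the others. Counting genes of all types in the rule leaves 1508 peaks.

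At the limits of the rule, the peaks just over 100 kb from a TSS, near Cpm, Gadd45a and Selenop, had a mean of 7.82, 1.71 and 4.24 CPM, and those just under it, near Zcchc2, Zfp706 and Auh, 4.14, 3.14 and 16 CPM. The widest desert peaks, of 2995 bp near Ube2e3 and 2961 bp near Itgb1, had 45 and 38.9 CPM, and the 2 next wider peaks, of 3006 bp near Rap1b and 3012 bp near Id2, had 42.1 and 31 CPM. The 3 peaks farthest from a TSS, all between Pcdh20 and Pcdh9 on chromosome 14 at 2627 to 2689 kb, held 0 to 16 counts per library, with 8, 0, 11 and 4 at the farthest and 11, 4, 16 and 6 at the single tested one. Ctrl 2 or KO 2 was the lowest library at each of them.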

How the data were processed

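H3K27ac CUT&Tag libraries were made from sorted large intestinal Treg cells. Per the labels and the methods of the study, the authors aligned reads to mm10 with Bowtie2, kept unique reads, removed duplicates, called peaks with MACS2 against IgG, merged them with bedtools and deposited raw counts per merged peak; tool versions were not given in the sources used here. Library totals were 2395002 to 4712473 counts. Because peaks were called on the compared libraries, the set depends on them.

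Peaks were placed on GENCODE M21 (GRCm38, the assembly of mm10), with TSSs of all basic transcripts of protein-coding genes. File starts were read as 0-based, and coordinates are printed 1-based. Sequence came from the RefSeq copy of GRCm38.p6. Counts were tested with edgeR 4.0.16 (R 4.3.3; TMM, quasi-likelihood, no covariate, Benjamini-Hochberg over all tested peaks) where at least 2 libraries held 10 counts. The prior degrees of freedom were infinite, so a peak's own replicate spread did not enter. SEs came from the fold change and F. Each library was a pool of cells from several mice per the methods of the study, so p-values measure the spread between such pools. Gap sums used the library sizes and factors of the peak table. Centred medians used log2(CPM + 0.5).

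Named were the 5 highest peaks, the 5 higher and 5 lower peaks of smallest p among those without overlap, the 3 farthest, the peaks beside each limit, the gaps with most peaks, highest level or smallest p, and the up to 5 genes per list with most peaks; Bcl11b and the Slc4a3-Epha4, Trib1-4933412E24Rik, Lclat1-Capn13 and Bcl6-Lpp gaps were chosen after their values were seen. Members and lists were chosen with earlier results of these data known. DESeq2 1.42.0, which the study used, other scalings, halved counts, other filters and rules, and leaving out each library were tried. The code was tested on simulated counts.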

Additional observations from a re-analysis of the deposited data

How the results depend on the processing

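The precision is limited by 2 libraries per group and by a typical 5 to 10 counts per desert peak and library. The numbers of calls moved as follows. Desert peaks at an unadjusted p under 0.05 were 27 higher and 27 lower in DESeq2, 87 and 110 with any count, and 3 and 3 with at least 50 counts in 2 libraries (fewer peaks tested), and 8 to 122 higher and 9 to 63 lower without 1 library. Gap sums were 10 higher and 4 lower in DESeq2, 15 lower with any count, 0 higher and 2 lower with at least 50 counts, and 1 to 226 higher and 3 to 159 lower without 1 library. The median of gap sums lay between -0.57 and 0.61 without 1 library, and that of desert peaks between -0.12 and 0.35. It was 0.03 with at least 50 counts and 0.38 with any count.

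No label says what libraries with the same replicate number share beyond that number. Over tested desert peaks, log2 CPM correlated at r = 0.75 between Ctrl 2 and KO 2 and at 0.63 between Ctrl 1 and KO 1. Within a genotype r was 0.58 for Ctrl and 0.67 for KO. Ctrl 1 with KO 2 stood at 0.63 and Ctrl 2 with KO 1 at 0.58. Whether a shared litter or batch lies behind these values was not tested. With the replicate block, 1 desert peak was called at an adjusted p under 0.05 (Rnf144a, log2 fold change 2.91, edgeR adjusted p 0.0457), where 211 of all 74550 tested peaks were, and an unadjusted p under 0.05 was found at 126 higher and 68 lower peaks and at 91 and 25 gap sums. The replicate 1 minus replicate 2 differences of Ctrl and KO correlated at r = 0.23 over tested desert peaks. The block changed no other call of a named peak or gap.

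The Pcmtd1 peak turned to 0.37 without Ctrl 1 and 0.09 without KO 2, with a range of -0.57 to 0.37. With a loess offset on abundance, which gives a sum of many peaks the offset of single peaks of its level, the gap values were -0.28 (Myc-Gsdmc), -0.29 (Satb1-Kcnh8), -0.16 (Adam6a-Zfp386), -0.17 (Celf2-Gata3), -0.023 (Vrk1-3110018I06Rik), -0.17 (Bcl2l11-Spdye4c), -0.15 (Foxo1-Cog6) and -0.15 (Id2-Rnf144a). With at least 50 counts the values were -0.015 at Myc-Gsdmc and -0.058 at Satb1-Kcnh8, which with total counts stood at -0.007. Without 1 library, values lay between -0.24 and 0.37 at Satb1-Kcnh8, -0.37 and 0.53 at Adam6a-Zfp386, -0.34 and 2.62 at Lcorl-Slit2 and -0.21 and 3.00 at Crbn-Lrrn1. For the other reversals the cause was not tested.

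The number of desert peaks was 16842 with a limit of 50 kb, 5666 with 200 kb and 1508 with genes of all types. In whole peaks, motif shares were 16.4% for AP-1, 15.6% for ETS, 12.2% for RUNX, 24.1% for GATA, 7.47% for forkhead, 1.66% for NF-kB, 15.5% for STAT, 23% for E-box, 18.6% for CTCF, 11% for TCF/LEF, 4.6% for IRF and 14.8% for KLF, with longer sequence searched. Of 396 values of named peaks and gaps under the alternatives, 376 kept their direction and their side of the threshold.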
